A study of Mus musculus with 2 samples.

Results

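Genes of the bone morphogenetic protein (BMP) and transforming growth factor beta (TGF-beta) pathways were compared between 2 mouse RNA libraries, each made from GFP-positive cells of the embryonic cortex after cooling of the mother. They were taken by gene name from the deposited table of read counts: BMP, GDF, TGF-beta and activin ligands, their receptors, the Smad proteins and Smurf ligases, secreted antagonists, latent TGF-beta binding proteins, Bmp1 and Tgfbi. The name rule matched 50 of 15643 listed genes. A further 9 names of these families, such as Bmp8a, Gdf15 and Ltbp2, had no row and were not analysed here.

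The library labelled Rbm3 knockdown and the control library both came from CD-1 embryos. A plasmid against Rbm3, a cold-inducible RNA-binding protein, or a control plasmid was electroporated in utero at embryonic day 13, the dams of both groups were cooled at embryonic day 14, and GFP-positive cells were sorted at embryonic day 15. Each group had 1 library, so no value below has a replicate and no test was made. The knockdown sequence, its promoter and the number of pooled embryos were not given in the labels. In all, the table held 16823612 reads in the library labelled knockdown and 17757555 in the control library. Rbm3 itself had 148 and 176 CPM (read counts scaled to library size), so that the library labelled knockdown held 84.1% of the control level (95% counting interval of the ratio 0.798 to 0.887). That library is therefore named by its label throughout. The labels call the cells neural stem cells. Radial glial markers such as Sox2 (2435 and 2529 reads) were present, but neuronal markers were more abundant per length: 10 of them summed to 2344 RPKM (reads scaled to gene length and library size) in the library labelled knockdown and 2320 in the control library, against 528 and 1103 for 12 radial glial markers. Genes of the Y chromosome such as Ddx3y had 0 reads in the library labelled knockdown and were present in the control library, so the mix of male and female embryos differed, and its part in the values below cannot be told apart from the plasmid.

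Ligands of this superfamily bind pairs of type I and type II receptor kinases at the cell surface. The type I receptor then phosphorylates receptor-regulated Smads, Smad1, Smad5 and Smad9 for most BMPs and Smad2 and Smad3 for TGF-beta and activin, which enter the nucleus with the common partner Smad4. Secreted antagonists trap the ligands, latent TGF-beta binding proteins hold them in the matrix, and inhibitory Smads and Smurf ubiquitin ligases damp the signal inside the cell. In the embryonic forebrain, BMPs are made at the dorsal midline, in the cortical hem, the choroid plexus and the meninges, and pattern the cortex beside them.

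The genes of the pathway did not differ in one direction between the libraries. BMP ligand genes were lower in the library labelled knockdown, whereas most receptors, receptor-regulated Smads and Smurfs were level or higher, and Tgfbi was the highest of all. Of the 50 genes, 36 were measured, that is, had a mean of at least 5 CPM over both libraries. With a rule of size of at least 2-fold on the log2 ratio (pseudocount 0.5 CPM), 3 of 36 measured genes were higher in the library labelled knockdown (8.33%, against 2.13% of 12140 measured genes of all kinds). These were Tgfbi, Smad4 and Bmpr2. Another 4 of 36 were lower (11.1%, against 4.51% of all measured genes), namely Bmp7, Bmp6, Tgfbr2 and Acvrl1. Bmp7, Bmp6 and Gdf10 were measured only through their control level, since they had under 5 CPM in the library labelled knockdown. The median log2 ratio of the 36 genes was 0.081, with 21 above 0 and 15 below, beside 0.035 over all measured genes. Of the 14 genes under the minimum, 12 had a lower CPM in the library labelled knockdown. Over all genes, 8039 of 15643 listed and 5695 of 12140 measured had a log2 ratio below 0, so scarce genes were more often lower in general. In 6 of the 14 pathway genes under the minimum, the whole counting interval lay below a ratio of 0.5, and all 6 had under 7 CPM in either library. The share of such intervals over all genes was not counted. Counting intervals cover the sampling of reads alone and not the spread between embryos, litters or sorts.

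**Figure D1:**
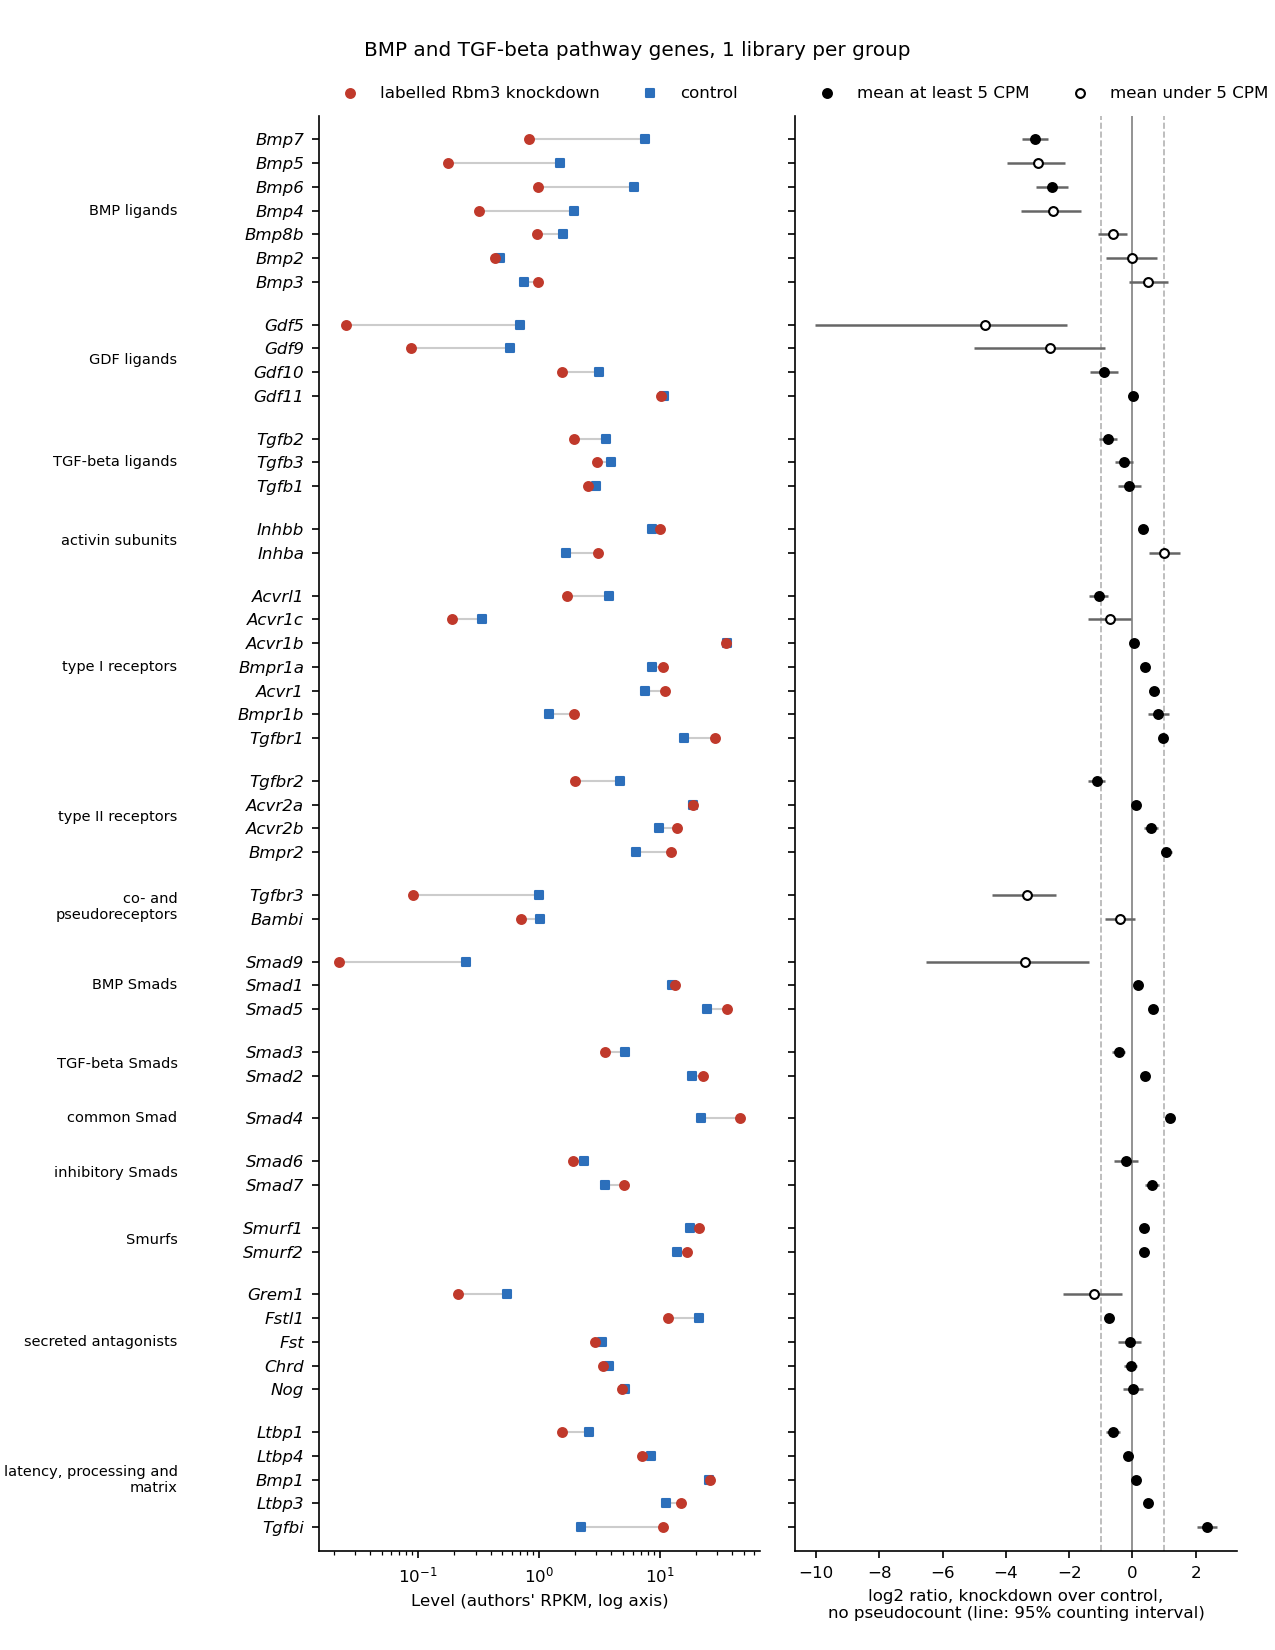
Level and ratio of the pathway genes named in the text, grouped by role. The left panel gives the authors' RPKM on a log axis for the library labelled Rbm3 knockdown (circles) and the control library (squares). The right panel gives the log2 ratio of knockdown over control without a pseudocount, with its 95% counting interval. Points are filled where the mean reaches 5 CPM, and dashed lines mark 2-fold. Bmp7, Bmp6, Bmp5, Bmp4, Tgfbr3, Gdf5 and Smad9 lie to the left of the lower line with their whole interval. Tgfbi and Smad4 lie to the right of the upper one with theirs.

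BMP ligand genes were the role with the lowest summed level relative to control. Their 7 listed members summed to 16.1 CPM (exact Poisson interval 14.2 to 18.2) in the library labelled knockdown and 63.5 CPM (59.9 to 67.2) in the control library, 3.94-fold lower (95% counting interval 3.44 to 4.52). In bulk samples of sorted cells, fewer cells of a type and less RNA per cell cannot be told apart. Bmp7 (ENSMUSG00000008999.7, chromosome 2, 172868012 to 172940321, minus strand), a ligand of the dorsal midline and meninges, had 56 reads (3.46 CPM) in the library labelled knockdown and 539 reads (29.2 CPM) in the control library. It was 8.46-fold lower (6.42 to 11.3), which placed it as number 41 from the lowest log2 ratio among 12140 measured genes. Bmp6 (ENSMUSG00000039004.5, chromosome 13, 38345107 to 38500302, plus strand), a close relative of Bmp7, had 40 reads (2.47 CPM) and 263 reads (14.3 CPM), 5.78-fold lower (4.13 to 8.27). Bmp5, of the same subfamily, had 12 and 108 reads (0.741 and 5.86 CPM), 7.91-fold lower (4.35 to 15.8). Bmp4, the ligand most studied in dorsal forebrain patterning, had 12 and 78 reads (0.741 and 4.23 CPM), 5.71-fold lower (3.09 to 11.5). All 4 were thus several-fold lower in the library labelled knockdown, Bmp5 and Bmp4 on few reads. In GENCODE, 46.7% of the exon bases of Bmp5 and 5.74% of those of Bmp6 overlap another gene, and the strand setting of the counting was not given in the labels.

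Among the remaining BMP ligands, Bmp8b was lower by less, and Bmp2 and Bmp3 rest on few reads. Bmp2 had 26 and 30 reads, a ratio of 0.986 (0.560 to 1.73), and Bmp3, which opposes other BMPs in bone, had 52 and 42 reads, a ratio of 1.41 (0.920 to 2.17). Both intervals include a ratio of 1, and both genes had under 5 CPM in each library. Bmp8b had 63 and 110 reads, a ratio of 0.652 (0.470 to 0.896), although its near-identical copy Bmp8a could trade reads with it. On the RPKM scale, which allows for length, the order of the ligand genes within each library differed accordingly. In the control library Bmp7 (7.54 RPKM) and Bmp6 (6.14 RPKM) came after Gdf11 and Inhbb as the ligands with the highest levels. In the library labelled knockdown they had 0.827 and 0.985 RPKM, ranks 11 and 9 of 16.

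The summed levels of GDF and TGF-beta ligands differed less, and activin subunits were higher in the library labelled knockdown. The GDF sum was mostly Gdf11 (787 of 977 control reads), and 3 of the 4 listed GDF genes had a log2 ratio below 0. Gdf11, which restrains neurogenesis in several neural tissues, was the most abundant ligand gene per length, with 699 reads (10.2 RPKM) in the library labelled knockdown and 787 reads (10.9 RPKM) in the control library. Its ratio on scaled CPM was 1.01 (0.912 to 1.12). Gdf10 had 66 and 140 reads (4.07 and 7.59 CPM), a ratio of 0.536 (0.394 to 0.724). Gdf5, known from joint formation, had 1 and 29 reads, a ratio of 0.0392 (0.000961 to 0.237), and Gdf9, known from the oocyte, had 3 and 21 reads, a ratio of 0.163 (0.0310 to 0.544). These 2 rest on a handful of reads, and 40.3% of the exon bases of Gdf5 overlap another gene. Tgfb2 had 155 and 304 reads (9.57 and 16.5 CPM), 1.72-fold lower (1.42 to 2.11). Tgfb3 had 174 and 237 reads, a ratio of 0.835 (0.683 to 1.02), and Tgfb1 had 111 and 135 reads, a ratio of 0.936 (0.721 to 1.21). All 3 TGF-beta ligands had a ratio below 1, and the interval of Tgfb2 alone left out 1. Inhbb, one of the activin beta subunits, had 718 and 651 reads (44.3 and 35.3 CPM), a ratio of 1.26 (1.13 to 1.40). Inhba, the other subunit and a gene induced by neuronal activity, had 104 and 59 reads (6.42 and 3.20 CPM), a ratio of 2.01 (1.44 to 2.81). With the pseudocount its log2 ratio was 0.90, and its mean lay just under the 5 CPM minimum.

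**Figure D2:**
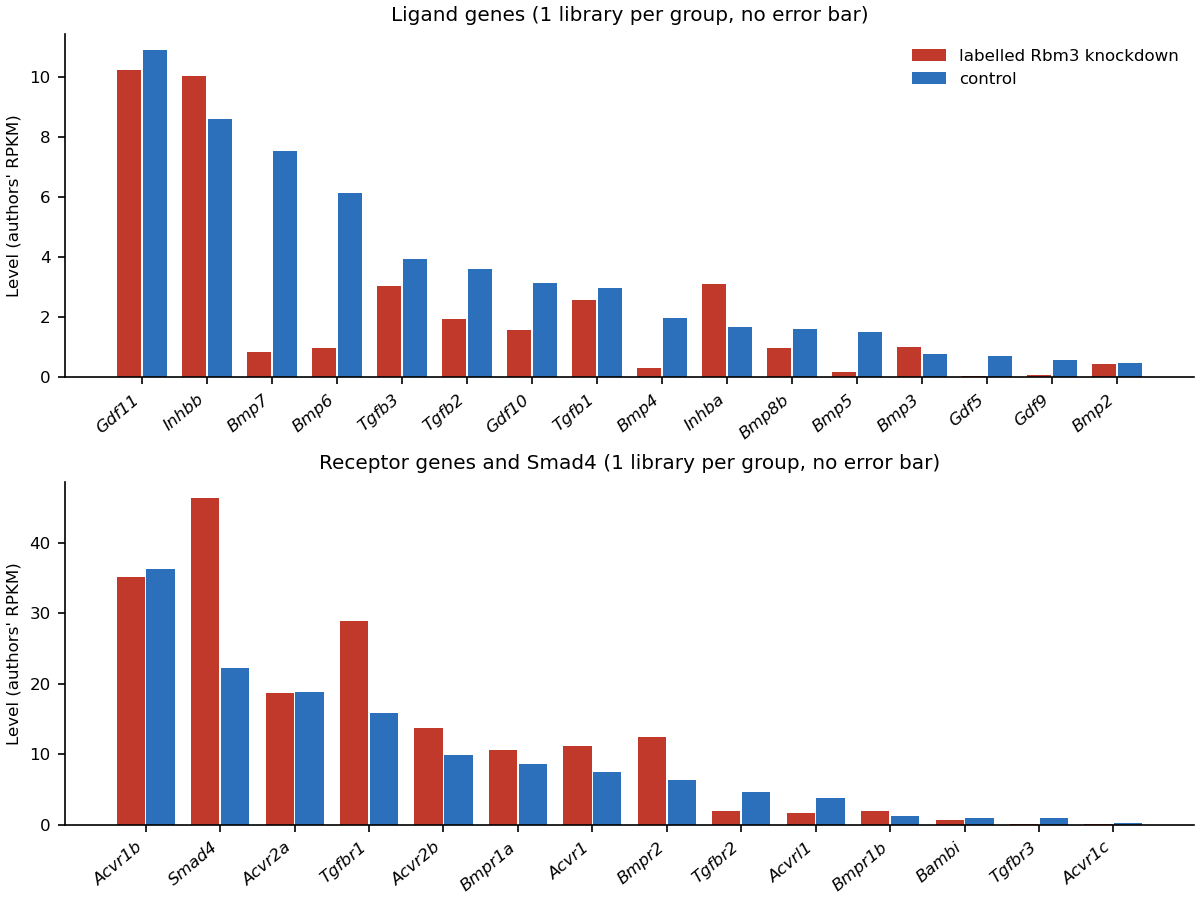
Level of ligand genes (top) and of receptor genes with Smad4 (bottom) in the authors' RPKM, with the library labelled Rbm3 knockdown at the left of each pair of bars and the control library at the right. Genes are ordered by their control level, and there is 1 library per group. Bmp7 and Bmp6 are under 1 RPKM in the library labelled knockdown and hold ranks 3 and 4 of 16 ligands in the control library. In the library labelled knockdown, Tgfbr1, Bmpr2 and Smad4 have the higher bar and Tgfbr2 and Acvrl1 the lower one.

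Most receptor genes were level or higher in the library labelled knockdown, while Acvrl1, Tgfbr2 and the scarce Acvr1c were lower. The 7 type I receptor genes summed to 505 CPM (494 to 516) in the library labelled knockdown and 367 CPM (359 to 376) in the control library. Acvr1b, an activin receptor, was the most abundant per length, with 2592 reads (35.2 RPKM) and 2828 reads (36.3 RPKM) and a ratio on scaled CPM of 1.04 (0.988 to 1.10). Tgfbr1, the type I receptor for TGF-beta, had 3187 and 1840 reads (197 and 99.8 CPM), 1.97-fold higher (1.86 to 2.09). Its log2 ratio of 0.98 fell just short of the 2-fold line. The BMP type I receptors were higher by less: Acvr1 had 911 and 647 reads (1.60-fold, 1.45 to 1.77). Bmpr1b had 197 and 128 reads (1.75-fold, 1.39 to 2.21) and Bmpr1a had 1141 and 982 reads (1.32-fold, 1.21 to 1.44). Acvrl1 (ENSMUSG00000000530.10, chromosome 15, 101128522 to 101145336, plus strand) encodes ALK1, the type I receptor of endothelial cells. It had 122 reads (7.53 CPM) and 292 reads (15.8 CPM), 2.10-fold lower (1.70 to 2.62). Acvr1b lies 28.7 kb from Acvrl1 on chromosome 15, and the log2 ratios of these neighbours were 0.06 and -1.02. Acvr1c was under the minimum with 30 and 56 reads.

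Among type II receptors, Bmpr2 was higher and Tgfbr2 lower. Bmpr2 (ENSMUSG00000067336.5, chromosome 1, 59763400 to 59879014, plus strand), the BMP type II receptor, had 748 reads (46.2 CPM) in the library labelled knockdown and 405 reads (21.97 CPM) in the control library, 2.10-fold higher (1.86 to 2.38). Tgfbr2 (ENSMUSG00000032440.6, chromosome 9, 116084293 to 116175360, minus strand), the type II receptor for TGF-beta, had 162 reads (9.998 CPM) and 401 reads (21.7 CPM), 2.18-fold lower (1.81 to 2.63). Acvr2a and Acvr2b, which serve activins and some BMPs, had ratios of 1.07 (1.01 to 1.14) and 1.503 (1.29 to 1.75). The partners Tgfbr1 and Tgfbr2 therefore stood in a different proportion: per length, Tgfbr1 was 14.4 times Tgfbr2 in the library labelled knockdown and 3.36 times in the control library. The reads of this pair gave a ratio of ratios of 4.29 (exact conditional interval 3.53 to 5.22), which no scaling between libraries can alter. Bmpr2 and Acvrl1, which pair in endothelial cells, stood at 7.36 to 1 in the library labelled knockdown and 1.66 to 1 in the control library, a ratio of ratios of 4.42 (3.44 to 5.69). Each of these pairs joins a gene that was higher with one that was lower, so its ratio of ratios restates their separate ratios. The reads come from all sorted cells and do not give the proportion within endothelial cells. The calls of Bmpr2, Tgfbr2 and Acvrl1 sit near the line: the log2 ratio of Bmpr2 was 0.95 with library totals and 0.96 with upper-quartile scaling, and those of Tgfbr2 and Acvrl1 were -0.98 and -0.90 with a pseudocount of 2 CPM.

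The coreceptor Tgfbr3, or betaglycan, which presents TGF-beta2 to its receptors, had 10 reads (0.617 CPM) in the library labelled knockdown and 116 reads (6.29 CPM) in the control library. It was 10.2-fold lower (5.35 to 21.8), with a mean under the minimum. Bambi, a pseudoreceptor without kinase activity, had 61 and 91 reads, a ratio of 0.763 (0.542 to 1.07).

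The upstream windows of 2 higher genes and of Tgfbr1, and those of 2 lower genes, are shown because these are the measured genes past the 2-fold line, or next to it, for which a RefSeq window (GRCm38.p6, 250 bases before to 50 after the start) was at hand. A window was found for 34 of the 50 genes. Capitals mark GGCGCC, a GC-rich element known from BMP-responsive promoters, searched on both strands (it is its own reverse complement). The windows are Tgfbi (chr13:56609336-56609635, plus strand), Bmpr2 (chr1:59764029-59764328, plus strand), Tgfbr1 (chr4:47352972-47353271, plus strand, the first of 2), Bmp6 (chr13:38345466-38345765, plus strand) and Tgfbr2 (chr9:116175314-116175613, minus strand), each printed 5′ to 3′ on the gene's strand.
Tgfbi: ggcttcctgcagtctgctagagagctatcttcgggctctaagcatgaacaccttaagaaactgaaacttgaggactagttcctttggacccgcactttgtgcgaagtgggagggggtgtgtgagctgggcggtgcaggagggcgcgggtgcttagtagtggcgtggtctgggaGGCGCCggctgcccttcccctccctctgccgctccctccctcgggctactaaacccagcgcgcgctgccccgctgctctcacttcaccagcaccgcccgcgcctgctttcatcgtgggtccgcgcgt
Bmpr2: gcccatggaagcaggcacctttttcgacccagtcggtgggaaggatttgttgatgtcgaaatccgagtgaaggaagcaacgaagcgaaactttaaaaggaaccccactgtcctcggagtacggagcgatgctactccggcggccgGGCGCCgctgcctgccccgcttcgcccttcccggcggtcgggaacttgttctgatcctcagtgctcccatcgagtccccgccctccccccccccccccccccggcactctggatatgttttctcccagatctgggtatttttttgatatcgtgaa
Tgfbr1: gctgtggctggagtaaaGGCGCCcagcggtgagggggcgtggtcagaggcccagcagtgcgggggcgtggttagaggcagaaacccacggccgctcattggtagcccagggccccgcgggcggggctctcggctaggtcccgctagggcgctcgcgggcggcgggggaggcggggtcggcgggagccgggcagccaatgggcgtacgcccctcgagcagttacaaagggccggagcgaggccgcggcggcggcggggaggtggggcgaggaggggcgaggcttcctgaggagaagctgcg
Bmp6: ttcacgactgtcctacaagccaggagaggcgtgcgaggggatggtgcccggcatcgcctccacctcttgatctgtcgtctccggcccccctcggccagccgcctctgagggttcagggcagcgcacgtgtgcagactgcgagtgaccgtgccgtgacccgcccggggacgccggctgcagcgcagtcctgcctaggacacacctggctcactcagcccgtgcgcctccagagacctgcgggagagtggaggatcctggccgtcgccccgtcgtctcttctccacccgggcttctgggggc
Tgfbr2: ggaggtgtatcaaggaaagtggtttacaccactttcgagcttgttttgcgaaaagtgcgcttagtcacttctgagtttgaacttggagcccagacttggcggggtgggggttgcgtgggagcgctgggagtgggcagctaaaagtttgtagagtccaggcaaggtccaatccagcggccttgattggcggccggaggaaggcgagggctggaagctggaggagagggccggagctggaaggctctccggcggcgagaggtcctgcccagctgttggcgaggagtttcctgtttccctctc
GGCGCC stands once in each of the printed windows of Tgfbi, Bmpr2 and Tgfbr1 and in neither of those of Bmp6 and Tgfbr2, while the other window of Tgfbr1 does not hold it. Windows of Smad9, Grem1 and Gdf10, which had log2 ratios of -1.53, -0.90 and -0.82, hold it too. The element was found in 12 of 34 pathway genes with a window (35.3%), in 24.6% of the listed genes with a window and in 13.4% of all 27025 genes with one. The palindromic Smad element GTCTAGAC was found in 1 of the 34 genes, Smad6, in 0.285% of the listed genes with a window and in 0.248% of all genes with one. The AP-1 element TGANTCA was found in 1 of 34, Ltbp3, in 5.97% of the listed genes with a window and in 8.97% of all genes with one. A match describes the letters of a window and shows neither a site nor a cause.

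Of the Smads, Smad4 had the highest ratio. Smad4 (ENSMUSG00000024515.7, chromosome 18, 73639009 to 73703780, minus strand), the partner shared by both branches, had 2900 reads (179 CPM) in the library labelled knockdown and 1466 reads (79.5 CPM) in the control library, 2.25-fold higher (2.11 to 2.40). Of the BMP Smads, Smad5 had 4483 and 3284 reads (277 and 178 CPM), 1.55-fold higher (1.48 to 1.63), and Smad1 had 1323 and 1322 reads (81.7 and 71.7 CPM), a ratio of 1.14 (1.05 to 1.23). Smad9 was scarce in both libraries, with 2 and 24 reads and a ratio of 0.0948 (0.0109 to 0.382). Smad2 and Smad3, which carry the TGF-beta signal, differed in opposite directions. Smad2 had 1370 and 1174 reads, a ratio of 1.33 (1.23 to 1.44), and Smad3 had 331 and 510 reads, a ratio of 0.739 (0.641 to 0.850). Their ratio of ratios was 1.80 (1.53 to 2.11). Of the inhibitory Smads, Smad7, which both branches induce, had 385 and 287 reads, a ratio of 1.53 (1.31 to 1.78), and Smad6 had 103 and 136 reads, a ratio of 0.862 (0.661 to 1.12). The ubiquitin ligases Smurf1 and Smurf2 had 2264 and 1752 reads in the library labelled knockdown, and 2009 and 1542 in the control library. Their ratios were near equal, at 1.28 (1.21 to 1.36) and 1.29 (1.21 to 1.39).

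Noggin, chordin and follistatin were level between the libraries. Noggin, a BMP antagonist encoded by Nog, had 157 and 177 reads (9.69 and 9.60 CPM), a ratio of 1.01 (0.809 to 1.26). Chordin, another BMP antagonist, encoded by Chrd, had 335 and 398 reads, a ratio of 0.958 (0.826 to 1.11), and follistatin, encoded by Fst and a trap for activin, had 114 and 138 reads, a ratio of 0.940 (0.727 to 1.21). Each of these 3 intervals includes 1, and differences within them were not detectable at this depth. Fstl1, a follistatin-like glycoprotein common in mesenchyme, was the most abundant antagonist gene per length. It had 974 reads (60.1 CPM) and 1860 reads (101 CPM), 1.68-fold lower (1.55 to 1.82). Grem1, which encodes the BMP antagonist gremlin 1, was scarce and had 15 and 40 reads, 2.34-fold lower (1.27 to 4.57).

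Tgfbi had the highest ratio of the 50 genes. Tgfbi (ENSMUSG00000035493.9, chromosome 13, 56609523 to 56639562, plus strand) encodes a secreted matrix protein named for its induction by TGF-beta. It had 478 reads (29.5 CPM) in the library labelled knockdown and 107 reads (5.80 CPM) in the control library, 5.08-fold higher (4.11 to 6.33), number 15 from the highest log2 ratio among all measured genes. Smad5 lies 63.4 kb from Tgfbi on chromosome 13 and had a log2 ratio of 0.63. Bmp1, a metalloprotease that cleaves chordin and procollagens, had 1644 and 1725 reads (26.0 and 25.8 RPKM), a ratio on scaled CPM of 1.08 (1.01 to 1.16). The latent TGF-beta binding proteins differed in both directions. Ltbp3 had 1313 and 1053 reads, 1.42-fold higher (1.31 to 1.54), and Ltbp1 had 276 and 482 reads, 1.53-fold lower (1.32 to 1.79). Ltbp4 had 778 and 970 reads, a ratio of 0.913 (0.829 to 1.00).

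**Figure D3:**
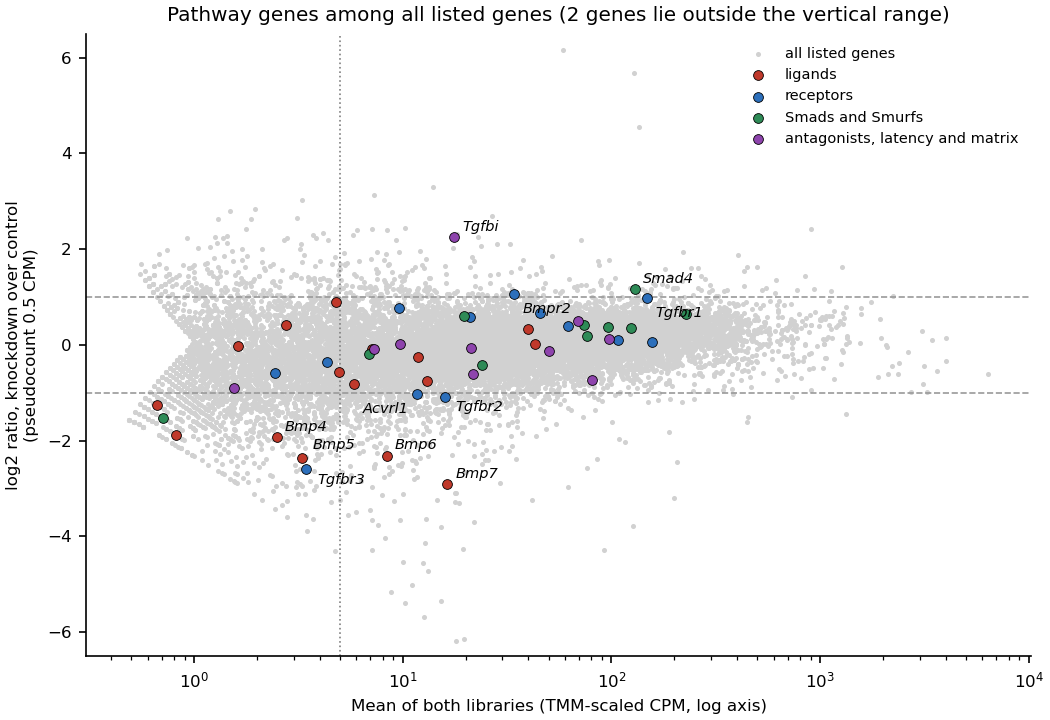
Log2 ratio of knockdown over control (pseudocount 0.5 CPM) against the mean of both libraries in scaled CPM (log axis) for all listed genes in grey and the pathway genes named in the text in colour by role. The dotted line marks the 5 CPM minimum and dashed lines mark 2-fold. Tgfbi at 2.25 and Bmp7 at -2.91 stand at the edges of the cloud, and Smad4, at 1.17, lies among abundant genes.

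Other genes of the pathway, from lists that hold none of the 50, gave 6 lower and 0 higher of 47 measured. Over all 12140 measured genes, 4.51% were lower and 2.13% higher. Of the 6, Msx1 and Pcsk6 were measured only through their control level, and 2 of the 6 were left with a minimum of 20 CPM. Among secreted modulators 2 of 12 measured were lower: Nbl1, a BMP antagonist, with 103 and 445 reads (3.80-fold, 3.06 to 4.75), and Pcsk6, a protease that matures ligands, with 51 and 203 reads (3.50-fold, 2.56 to 4.85). The most abundant modulators per length were Twsg1, with 1865 and 1349 reads and a ratio of 1.57 (1.47 to 1.69), and Inha, with 399 and 600 reads and a ratio of 0.757 (0.665 to 0.860). Of 6 measured coreceptors and latency receptors, Eng, the endothelial coreceptor of ALK1, was the 1 lower, with 127 and 612 reads (4.23-fold, 3.49 to 5.17). The neuronal BMP coreceptors Rgma and Rgmb had ratios of 0.956 (0.897 to 1.02) and 1.49 (1.39 to 1.61). None of 17 intracellular regulators reached 2-fold, and 15 of them had a log2 ratio above 0, with a median of 0.30. Over all measured genes, 6445 of 12140 were above 0, with a median of 0.035, or 0.097 with a minimum of 20 CPM. Log2 ratios rose with mean CPM over all measured genes (Spearman's rho 0.30), and its part in these values was not tested. Strap and Fkbp1a, the most abundant of the 17 regulators per length, had ratios of 1.36 (1.30 to 1.43) and 0.853 (0.814 to 0.895). Zeb2 and Nedd4l, with the highest mean CPM, had ratios of 1.46 (1.40 to 1.53) and 1.55 (1.49 to 1.62).

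Genes that BMP signalling is known to induce had a median log2 ratio of -0.59 over 6 measured, with 5 below 0 and 1 above. In the library labelled knockdown 3 of the 6 were lower by at least 2-fold, beside 4.51% of all measured genes. The homeobox gene Msx1 had 16 and 188 reads (10.3-fold, 6.19 to 18.4), Id3 had 184 and 656 reads (3.13-fold, 2.66 to 3.71) and Id1 had 111 and 282 reads (2.23-fold, 1.79 to 2.81). The log2 ratio of Id1 was -1.10, near the 2-fold line. The Id genes encode inhibitors of proneural factors. The most abundant members of that list, Id2 with 2458 and 1795 reads and Id4 with 1974 and 2283 reads, had ratios of 1.56 (1.47 to 1.66) and 0.984 (0.926 to 1.05). Of 6 measured genes that TGF-beta is known to induce, 0 reached 2-fold in either direction. Their median log2 ratio was 0.18, with 4 above 0 and 2 below. Skil and Pmepa1 had ratios of 1.44 (1.34 to 1.54) and 1.18 (1.07 to 1.30), whereas Cdkn1a had one of 0.532 (0.453 to 0.622).

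Markers of tissues next to the cortex were lower as the BMP ligand genes were, those of the meninges and choroid plexus by more and those of the cortical hem by less. All 12 meningeal fibroblast markers were at least 2-fold lower, and they summed to 58.0 CPM in the library labelled knockdown and 736 CPM in the control library. Over all measured genes the shares were 4.51% lower and 2.13% higher. Of 5 measured choroid plexus markers 4 were lower, and the 7 listed summed to 20.6 and 654 CPM, most of it Ttr with 7 and 10451 reads. Of 8 listed markers of the cortical hem, a source of BMPs, 3 were measured and 1 was lower, with sums of 53.1 and 87.5 CPM. Of these lower markers, 9 meningeal ones, all 4 of the choroid plexus and the 1 of the hem passed the 5 CPM minimum only through the control library, so their counts are a description. None of these markers was at 0 in either library, and Dcn, at 1 and 724 reads, came closest. Beside Acvrl1, Tgfbr2 and Eng, 7 of 10 measured endothelial markers were lower, with sums of 156 and 384 CPM over 11 genes. Among mural markers 3 of 9 were lower, with sums of 177 and 284 CPM. Here 3 of the lower endothelial markers and 2 of the mural ones passed the minimum only through the control library. Of 8 listed erythroid markers, 6 were measured and all 6 were lower, with sums of 67.8 and 309 CPM. Of those 6, 3 passed the minimum only through the control library. Beside Tgfbi, the microglia and macrophage list had 1 higher and 2 lower of 9 measured, with sums of 142 and 174 CPM. Of the 2 lower, Lyve1 was at 0 in the library labelled knockdown and passed the minimum only through the control library. Ptprc, the 1 higher, had 2.28 CPM in the control library and passed only through the library labelled knockdown. Beside Smad4, Bmpr2 and Tgfbr1, intermediate progenitor markers had 4 of 9 higher, with sums of 1183 and 671 CPM. Neurog1, among those 4, had 3.63 CPM in the control library and passed the minimum only through the library labelled knockdown. Radial glial markers had 3 of 12 lower, with sums of 1606 and 2614 CPM. The part of these cell types in the differences of the pathway genes was not tested. With 1 library per group, the tissue taken at each sort and the plasmid cannot be told apart.

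**Figure D4:**
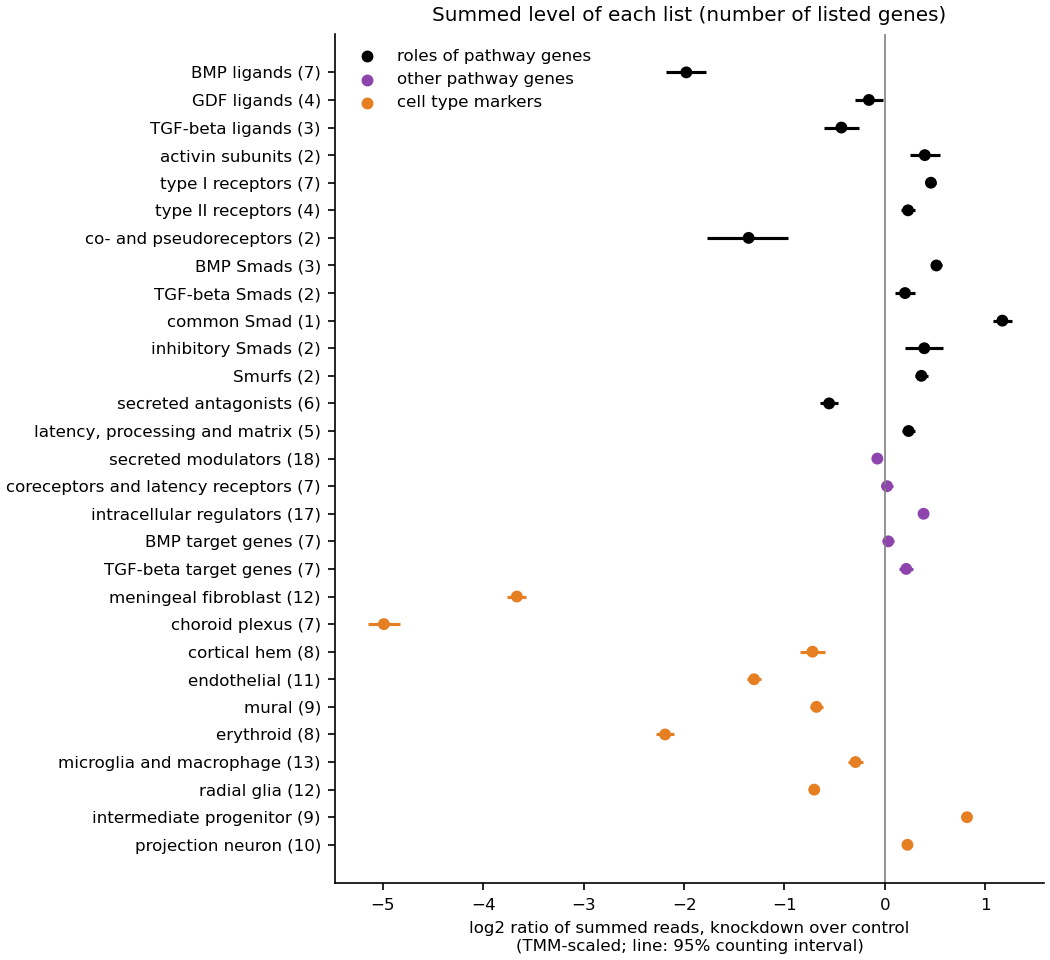
Log2 ratio of the summed reads of each list, knockdown over control, with its 95% counting interval, for the roles of the 50 pathway genes (black), other pathway genes (purple) and cell type markers (orange); the number of listed genes is in brackets. BMP ligands at -1.98 lie lowest of the roles. Choroid plexus at -4.99, meningeal fibroblast markers at -3.67 and erythroid markers at -2.19 lie lower still.

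In the authors' deposited table, 9 of the 50 genes passed as lower at the threshold the authors state (a p-value under 0.05 with more than a doubling or halving), 18% against 6.05% of all 15643 listed genes. Among them were Bmp7, Bmp5, Bmp6, Bmp4, Gdf5, Gdf9, Tgfbr3 and Smad9. Tgfbi was the 1 gene that passed as higher, 2% against 1.82% of all listed genes, again from the authors' deposited table. By its adjusted p under 0.05, the authors' deposited table held 6 of the 50 as lower (1.61% of all listed genes) and Tgfbi as higher (0.268% of all listed genes). Smad4, Bmpr2, Tgfbr2 and Acvrl1 passed neither threshold there. The authors' deposited table gave log2 fold changes of 1.17 for Smad4, 1.07 for Bmpr2, -1.12 for Tgfbr2 and -1.07 for Acvrl1. With 1 library per group, the spread behind those p-values was not measured.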

How the data were processed

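RNA sequencing of 2 libraries was analysed, 1 from cells labelled Rbm3 knockdown and 1 from control cells. From 100 ng of RNA, mRNA was enriched on oligo(dT) beads and primed at random, per the labels' protocols. The submitters' processing notes name TopHat2 2.0.12, Bowtie 1.0.1 and HTSeq 0.6.0. Build, annotation and strand setting: not given in the sources used here. Per the file headers, the authors deposited raw read counts per gene, RPKM values, a log2 fold change, a log2 average CPM, and a p-value with its adjusted form. RPKM was used to compare genes within a library.

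Counts were scaled with TMM factors (edgeR 4.0.16; 0.963 for the library labelled knockdown and 1.04 for the control library). Log2 ratios are on CPM with a pseudocount of 0.5, which understates differences of scarce genes. Folds and ratios in brackets with an interval carry no pseudocount, and their exact (Clopper-Pearson) 95% intervals rest on how a gene's reads divide over both libraries. They cover counting error only. They also treat reads as independent, which PCR copies are not, so they may be too narrow even for that. No test was made. The calculation was tested on simulated data. Measured genes had a mean of at least 5 CPM, a filter that a gene can pass through 1 library alone. Gene IDs were looked up in GENCODE M21 (GRCm38), where 15459 of 15643 were found. Windows came from RefSeq.

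The genes, lists and rules were chosen with earlier results of these data known. The rule for naming took every gene past 2-fold, those within 0.15 (log2) of that line and the 2 most abundant of each role. Of the other lists it took those past 2-fold and the 2 most abundant. Skil and the promoter windows shown were chosen after their values were seen. Which genes were paired for a ratio of ratios was not set by the rule for naming. Alternatives were 3 scalings, 2 pseudocounts, 3 CPM minimums, 2 fold rules and the authors' log2 fold change. A length correction (lowess, span 0.3) was chosen after seeing the data. The values of 1 pathway gene are not reported here, though it enters the counts and sums.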

Additional observations from a re-analysis of the deposited data

How the results depend on the processing

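Directions of the 7 called genes held under each scaling, pseudocount, length correction and the authors' log2 fold change. Bmp7, Bmp6, Smad4 and Tgfbi stayed past 2-fold under all 7 of these, and Bmpr2, Tgfbr2 and Acvrl1 lost it where the report says so. The count of pathway genes higher was 8 at 1.5-fold and 1 at 3-fold. The count lower was 2 with a pseudocount of 2 CPM, 11 with no CPM minimum, 8 with a minimum of 1 CPM, 0 with one of 20 CPM, 8 at 1.5-fold and 2 at 3-fold. The 20 CPM minimum removes all 4 lower genes by construction. Over all genes, 1384 were lower and 506 higher with no minimum. The median log2 ratio of the pathway genes was -0.072 with no minimum, 0.34 with a minimum of 20 CPM and -0.027 with library totals, so it has no settled direction. Library totals moved the median of all measured genes to -0.071. Other pathway genes numbered 4 higher and 11 lower at 1.5-fold, and 2 lower with a minimum of 20 CPM. Those lower numbered 5 with a pseudocount of 2 CPM and 5 with the length correction. Rbm3 had log2 ratios of -0.36 with library totals, -0.34 with upper-quartile scaling and -0.34 with the length correction.

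With library totals and with upper-quartile scaling, in that order, log2 ratios of summed levels were 0.40 and 0.42 for BMP Smads, 0.26 and 0.27 for Smurfs, 1.06 and 1.08 for the common Smad and 0.35 and 0.36 for type I receptors. They were 0.12 and 0.14 for type II receptors, -0.66 and -0.65 for secreted antagonists and 0.13 and 0.14 for latency, processing and matrix genes. TGF-beta Smads had 0.092 with library totals. Depth limits the scarce ligands and antagonists, and no setting supplies the missing replicates. No paired analysis was possible because each group had 1 library.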

Other observations

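Log2 ratios followed length and level over the transcriptome as a description across genes, which are not independent replicates. Over 12140 measured genes, Spearman's rho between the log2 ratio and the length implied by the RPKM values was 0.25. The 3036 shortest genes had a median log2 ratio of -0.17 and the 3035 longest one of 0.19. With mean CPM, rho over the 12140 measured genes was 0.30. Over the 36 measured pathway genes rho was 0.15 with length and 0.49 with mean CPM. After removal of the length trend the log2 ratios were 1.02 for Bmpr2, 0.83 for Tgfbr1, 1.12 for Smad4, 2.30 for Tgfbi and -1.18 for Tgfbr2.

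Of neighbouring pathway genes, Acvr1c and Acvr1, 30.7 kb apart on chromosome 2, had log2 ratios of -0.59 and 0.67. Smad3 and Smad6, 195 kb apart on chromosome 9, had -0.43 and -0.20, and Smad7 and Smad2 on chromosome 18 had 0.59 and 0.41.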
